A study of Mus musculus with 7 samples.

Results

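Adipocyte transcripts in the right lung lobes were followed through 8 genes, Adipoq, Plin1, Plin4, Cidec, Cidea, Ucp1, Lep and Retn, out of 55401 genes in the count table. The 8 genes were taken by name from a list of white and brown adipocyte genes as a check for other tissue in the lobes. RNA-seq was performed on the right lung lobes of male C57BL/6 mice aged 6 to 8 weeks and weighing 20 to 25 g, all of which had received bleomycin, a drug that causes lung fibrosis. The BLM group held 4 mice that had bleomycin alone. The BLM+HBO group held 3 mice that also had hyperbaric oxygen (HBO) at 2.5 ATA for 90 min a day on 14 days, starting on day 7 after bleomycin. Lungs of both groups were taken on day 21. The records place the BLM mice in the chamber without pressurised oxygen, whereas the study's methods call the control mice untreated, and no group without bleomycin was analysed here.

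Adipocytes store fat in droplets and secrete hormones, and fat pads lie around the heart, the great airways and the thymus, close to where lung lobes are cut free. The large droplet of the white adipocyte is coated and enlarged by perilipins and CIDE proteins, while the brown adipocyte burns fat as heat through the uncoupling protein UCP1. Adiponectin, leptin and resistin, encoded by Adipoq, Lep and Retn, are hormones that mouse fat cells release into blood. In a bulk sample, fewer cells of a type and less RNA per cell cannot be told apart.

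The 250 bases before the RefSeq start site are shown for 4 of the genes. Lep, Adipoq and Ucp1 mark mature adipocytes and had 1, 71 and 11 reads over the 7 mice. Plin4 carried more reads than the other members together. Of the RefSeq promoter entries (GRCm38.p6) read here, some matched 7 of the 8 genes. Cidea was not matched, and whether RefSeq holds an entry for it was not tested. Sequences run 5′ to 3′ on the gene's strand, and capitals mark matches on either strand to TTGCGCAA (a C/EBP-type letter string), AGGTCA (a nuclear receptor half-site), CCAAT or TATAA.
Lep, chr6:29059971-29060220, plus strand: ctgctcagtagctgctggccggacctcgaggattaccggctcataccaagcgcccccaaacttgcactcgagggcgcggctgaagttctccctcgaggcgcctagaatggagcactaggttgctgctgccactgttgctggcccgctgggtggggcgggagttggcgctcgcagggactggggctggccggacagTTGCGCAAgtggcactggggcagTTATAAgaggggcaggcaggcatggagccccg
Adipoq, chr16:23146286-23146535, plus strand: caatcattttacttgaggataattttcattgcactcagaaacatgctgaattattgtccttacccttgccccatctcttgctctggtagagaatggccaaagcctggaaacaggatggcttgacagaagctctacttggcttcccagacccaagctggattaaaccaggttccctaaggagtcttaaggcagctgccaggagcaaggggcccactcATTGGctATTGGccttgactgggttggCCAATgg
Ucp1, chr8:83290098-83290347, plus strand: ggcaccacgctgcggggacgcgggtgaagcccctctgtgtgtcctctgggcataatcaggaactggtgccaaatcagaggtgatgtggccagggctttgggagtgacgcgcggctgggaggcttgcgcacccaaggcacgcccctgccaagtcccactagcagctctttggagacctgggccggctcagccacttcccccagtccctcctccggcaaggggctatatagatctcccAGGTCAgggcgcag
Plin4, chr17:56109783-56110032, minus strand: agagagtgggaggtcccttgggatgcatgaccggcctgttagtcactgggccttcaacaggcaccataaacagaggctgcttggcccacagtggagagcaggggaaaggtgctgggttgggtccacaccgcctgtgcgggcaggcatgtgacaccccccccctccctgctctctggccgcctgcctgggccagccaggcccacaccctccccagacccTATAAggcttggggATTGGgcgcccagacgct
Distances are counted from the start site to the nearest base of a match. Lep held TTGCGCAA 48 bases before its start, a string found in 0.164% of the 32851 promoters of this length that were read. It also held TTATAA, read as 2 overlapping TATAA matches on opposite strands, at 28 and 27 bases. Adipoq held CCAAT 3 times, at 30, 23 and 3 bases, and CCAAT was found in 33.8% of promoters. Ucp1 held AGGTCA at 9 bases (14% of promoters). Plin4 held TATAA at 28 bases (22.8% of promoters) and CCAAT at 14 bases. The windows of Plin1, Cidec and Retn held none of the 4 strings. A match here is a description of the letters and says nothing of binding in these lungs.

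The libraries held between 18157161 and 26365969 counted reads, and the deepest was BLM+HBO 3. A count of 3 reads corresponded to between 0.113 and 0.169 CPM, the read count scaled to the size of the library, and that was taken as the floor of detection. Among 12 genes of lung epithelium and endothelium, the tissue label was met by a summed level of 16908 to 48911 CPM per mouse. The groups were compared with edgeR's quasi-likelihood test over 17465 genes, and a gene was called when its unadjusted P was under 0.05 and its fold change over 1.5, the study's thresholds. In all, 1098 genes (6.29%) were called, 594 higher (3.40%) and 504 lower (2.89%) in BLM+HBO. No gene passed a Benjamini-Hochberg adjusted P of 0.05 in edgeR, while 1861 (10.7%) had an unadjusted P below 0.05, and DESeq2 gave 123 genes at adjusted P below 0.05.

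The 8 adipocyte genes took 1134 of 139497211 reads over the 7 mice, or a level of 8.13 CPM on the total. Plin4 alone gave 586 of these reads (51.7%). Of the 8 genes, 4 had enough reads to be tested (Adipoq, Plin4, Cidec and Cidea), and Plin1, Ucp1, Lep and Retn fell below the filter on low counts. None of the 4 tested genes was called in either direction, against 6.29% of all tested genes. Their median log2 fold change (BLM+HBO over BLM) was 0.64, beside 0.01 over all tested genes.

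On a per-length scale (RPKM, CPM divided by exon length in kilobases, mean over 7 mice), Cidec was highest at 0.914, followed by Cidea at 0.840, Plin4 at 0.651 and Adipoq at 0.354. Retn followed at 0.116 RPKM, Plin1 at 0.0755, Ucp1 at 0.0472 and Lep at 0.00224. The first place of Cidec rests on BLM+HBO 3, which had 2.69 RPKM of Cidec. In the BLM mice Cidea averaged 0.789 RPKM, Cidec 0.588 and Plin4 0.540. Neighbours in the order over the 7 mice overlapped in their ranges over the mice. The lowest RPKM of Plin4 (0.398) stood above the highest of Retn (0.200). Cidec, the highest of the 8, ranked 14544 among 32896 genes with a read by this measure, and Lep ranked 32579.

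**Figure D1:**
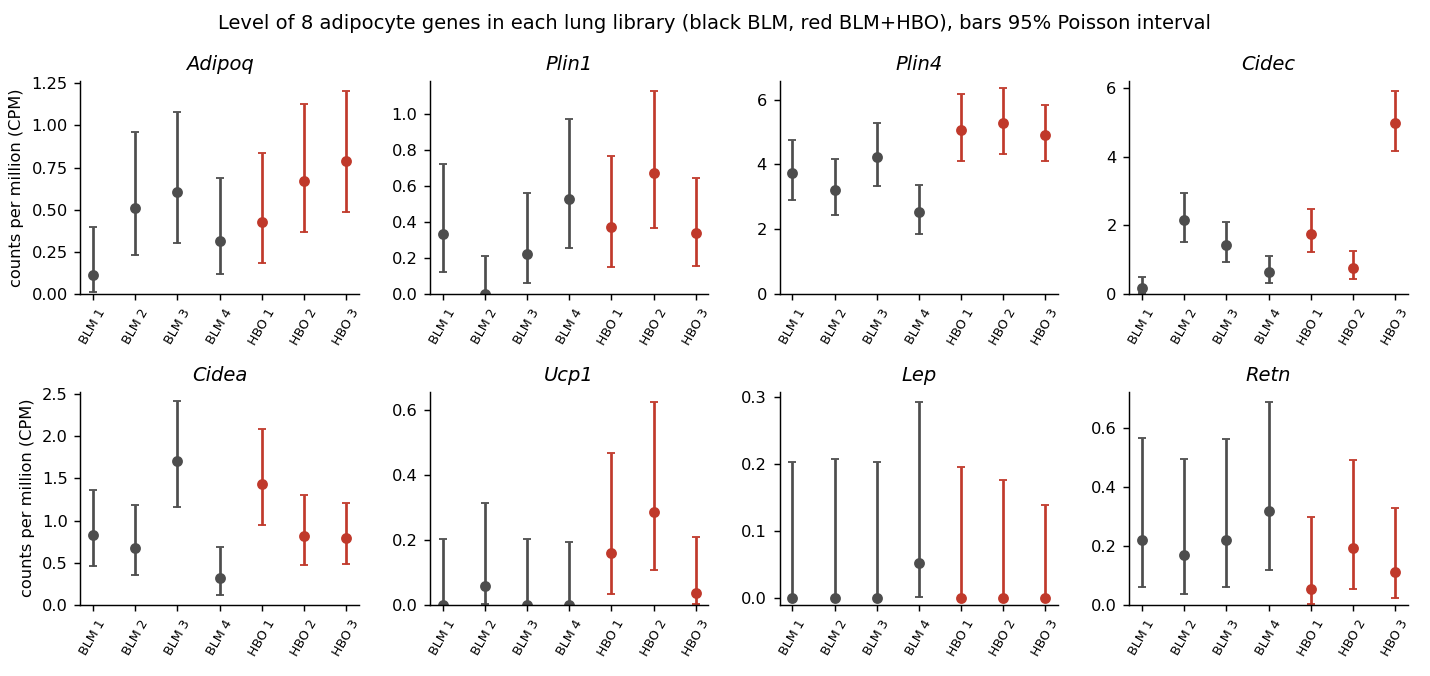
Level in CPM (vertical axes, linear, each gene on its own scale) of the 8 adipocyte genes in each mouse, with 95% Poisson intervals of the read count as bars; HBO 1 to 3 are the BLM+HBO mice. Plin4 is the gene whose groups do not overlap, Cidec is highest in BLM+HBO 3 at 4.99 CPM, and Lep has 1 read in all.

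Hormone genes are the most specific marks of fat. Lep (ENSMUSG00000059201.12, chromosome 6, 29060220 to 29073877, plus strand), which encodes the satiety hormone leptin, had 1 read over the 7 libraries together, in BLM 4. Both groups were below 3 reads, and no fold is given. Lep was thus below the floor of detection in every lobe.

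Adipoq (ENSMUSG00000022878.5, chromosome 16, 23146536 to 23158028, plus strand) encodes adiponectin, among the most abundant proteins secreted by fat. It had 2, 9, 11 and 6 reads in BLM mice 1 to 4 and 8, 14 and 21 reads in BLM+HBO mice 1 to 3. As CPM these were 0.110, 0.507, 0.604 and 0.316 against 0.426, 0.670 and 0.787. BLM 1 was the lowest and BLM+HBO 3 the highest, but BLM 2 and 3 lay above BLM+HBO 1, so the groups overlapped. The means were 0.384 ± 0.218 CPM (SD, n = 4) and 0.628 ± 0.184 (SD, n = 3), with a log2 fold change of 0.71 (SE 0.55, adjusted P = 0.657). The approximate 95% interval of the fold, 0.782 to 3.45, included 1, no change.

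Retn (ENSMUSG00000012705.16, chromosome 8, 3655770 to 3660110, plus strand), which encodes resistin, had 4, 3, 4 and 6 reads in BLM mice and 1, 4 and 3 in BLM+HBO mice. It was the one hormone gene with more than 1 read whose mean was lower in BLM+HBO, at 0.231 ± 0.0613 CPM (SD, n = 4) against 0.119 ± 0.0693 (SD, n = 3), and the groups overlapped. The ratio of pooled reads was 0.519, with a counting interval of 0.194 to 1.27. In a fit without the filter on low counts its log2 fold change was -0.92 (SE 0.96, adjusted P = 0.720).

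The droplet proteins held most of the reads. Plin4 (ENSMUSG00000002831.14, chromosome 17, 56100591 to 56109803, minus strand) encodes perilipin 4, a coat protein of small lipid droplets in fat that is also known from heart and skeletal muscle. It had 68, 57, 77 and 48 reads in the BLM mice and 95, 110 and 131 in the BLM+HBO mice. In CPM these were 3.74, 3.21, 4.23 and 2.53 against 5.06, 5.26 and 4.91. Every BLM+HBO mouse lay above every BLM mouse, as was true in one direction or the other of 8.77% of all tested genes.

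The Plin4 means were 3.43 ± 0.730 CPM (SD, n = 4) and 5.08 ± 0.177 (SD, n = 3). The log2 fold change was 0.57 (SE 0.24, adjusted P = 0.461), a fold of 1.48 with an approximate 95% interval of 1.06 to 2.06. Its unadjusted P was under 0.05, but the fold was just below the limit of 1.5, so Plin4 was not called. It passed the limit, still at unadjusted P below 0.05, without BLM 3 (log2 fold change 0.68, adjusted P = 0.381) and with upper-quartile factors or library totals in place of TMM. The unadjusted P of Plin4 in edgeR's quasi-likelihood test was above 0.05 when any mouse other than BLM 3 was left out. The same held with the replicate block and with no filter on low counts. In the annotation, 17 of its 6350 exon bases (0.268%) are shared with Hdgfl2 on the opposite strand.

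Plin1 (ENSMUSG00000030546.14, chromosome 7, 79720218 to 79732903, minus strand) encodes perilipin 1, the coat of the large droplet and a mark of mature fat cells. It had 6, 0, 4 and 10 reads in BLM mice and 7, 14 and 9 in BLM+HBO mice, and 1 mouse, BLM 2, had none. The levels were 0.269 ± 0.220 CPM (SD, n = 4) and 0.460 ± 0.183 (SD, n = 3), with overlapping groups. The ratio of pooled reads was 1.65, with a counting interval of 0.908 to 3.07.

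Cidec (ENSMUSG00000030278.11, chromosome 6, 113424634 to 113435760, minus strand) encodes the fat-specific protein that moves lipid between droplets until one large droplet is left. It had 3, 38, 26 and 12 reads in BLM mice and 33, 16 and 133 in BLM+HBO mice. In CPM these were 0.165, 2.14, 1.43 and 0.632 against 1.76, 0.766 and 4.99. BLM+HBO 3 was 30.2 times BLM 1, whereas the other BLM+HBO mice lay within the BLM range.

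The Cidec means were 1.09 ± 0.873 CPM (SD, n = 4) and 2.50 ± 2.21 (SD, n = 3), with a log2 fold change of 1.21 (SE 0.76, adjusted P = 0.597). Without BLM+HBO 3 the log2 fold change was 0.20 (adjusted P = 0.979). It passed the call thresholds without BLM+HBO 2 (log2 fold change 1.63, adjusted P = 0.312) and when no filter on low counts was used (1.21, adjusted P = 0.457). The variance of Cidec within groups was 24.7 times that of counting error, while for Adipoq this ratio was 1.81 and for Plin4 1.79.

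Cidea encodes a CIDE protein of brown fat droplets (ENSMUSG00000024526.9, chromosome 18). It had 15, 12, 31 and 6 reads in BLM mice and 27, 17 and 21 in BLM+HBO mice. The BLM mice spanned 0.316 to 1.70 CPM and held both the lowest and the highest value, with the BLM+HBO mice between 0.787 and 1.44. The means were 0.880 ± 0.588 CPM (SD, n = 4) and 1.01 ± 0.368 (SD, n = 3). The log2 fold change was 0.19 (SE 0.54, adjusted P = 0.926), and its direction turned when single mice were left out, from -0.13 without BLM+HBO 1 to 0.73 without BLM 3.

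Ucp1 (ENSMUSG00000031710.4, chromosome 8, 83290352 to 83298452, plus strand), the defining gene of brown fat, had 0, 1, 0 and 0 reads in BLM mice and 3, 6 and 1 in BLM+HBO mice. The highest level was 0.287 CPM, in BLM+HBO 2. The pooled reads were 1 against 10, a ratio of 11.02 with a counting interval of 1.57 to 478 that takes the mice of a group as one pool. The fit without the filter gave a log2 fold change of 3.04 (SE 1.52, adjusted P = 0.559). BLM 2 and BLM+HBO 3 had 1 read each, so the groups overlapped, and the gene did not pass the threshold.

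Summed over the 8 genes, the level was 5.40, 6.76, 8.40 and 4.69 CPM in BLM mice and 9.26, 8.66 and 11.96 CPM in BLM+HBO mice. The groups did not overlap, at 6.31 ± 1.64 CPM (SD, n = 4) and 9.96 ± 1.76 (SD, n = 3). Without Plin4 the sums were 1.65, 3.55, 4.17 and 2.16 against 4.21, 3.40 and 7.05 CPM, and the groups overlapped. Without Plin4 and Cidec, the remaining 6 genes summed to 1.41 to 2.75 CPM in BLM and 2.06 to 2.63 CPM in BLM+HBO.

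The ratio of reads between the genes differed from mouse to mouse. Cidec gave between 1.14 and 6.33 reads for each read of Adipoq. Plin4 gave between 6.24 and 34 reads for each read of Adipoq, and Cidea between 1 and 7.5. The highest ratios of Plin4 and Cidea came from BLM 1, which had 2 reads of Adipoq.

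By the profile over the mice, the genes most like Adipoq were sought among 16714 genes, using the mean absolute difference of centred log2 CPM. Gm41077 (0.168), Greb1l (0.183), Dqx1 (0.187), Fam83f (0.187) and Lypd2 (0.206) were the nearest, beside a median of 0.553 over all compared genes. None of the nearest 10 was in an adipocyte list. Plin4 differed from Adipoq by 0.464 (rank 2428), Cidec by 0.717 (rank 14413) and Cidea by 0.749 (rank 14790). With 2 to 21 reads of Adipoq per mouse, counting error enters each of these distances.

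Other white adipocyte genes were read from the same fit. Of 20 listed genes 17 were tested, 3 were called higher, none lower, and the median log2 fold change was 0.00. The 3 were Adrb3, the fat-cell adrenergic receptor (log2 fold change 0.93, SE 0.35), Dgat2, which completes triglyceride synthesis (0.68, SE 0.26), and Lgals12, a galectin of lipid droplets (1.07, SE 0.46). Their adjusted P-values were 0.438, 0.438 and 0.461, from edgeR's quasi-likelihood test with Benjamini-Hochberg adjustment. Adrb3 was 2.42, 3.89, 2.85 and 4.58 CPM in BLM mice and 7.99, 3.45 and 8.25 CPM in BLM+HBO mice, so BLM+HBO 2 lay within the BLM range.

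Dgat2 was the one of the 3 whose groups did not overlap, at 6.20 to 6.65 CPM in BLM and 7.75 to 15.5 CPM in BLM+HBO. Adipsin (Cfd), a protease secreted by fat, was 2.72 ± 1.60 CPM (SD, n = 4) and 3.15 ± 1.91 (SD, n = 3), with an adjusted P of 0.917. Acvr1c, Aqp7 and Pck1, also typical of fat, were below the filter. With single mice left out, the count of called white adipocyte genes was highest without BLM+HBO 2, at 3 higher and 1 lower, and it was 0 when BLM 3 or BLM+HBO 1 was left out and 1 when BLM 1 or BLM+HBO 3 was.

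Other brown adipocyte genes gave 9 tested of 15 listed, with 2 called higher, none lower and a median log2 fold change of 0.38. The 2 were Cox7a1 (log2 fold change 1.49, SE 0.42, adjusted P = 0.423) and Cox8b (1.64, SE 0.68, adjusted P = 0.452), respiratory chain subunits that heart and skeletal muscle also use. Cox7a1 was 0.620 to 1.90 CPM in BLM mice and 5.06, 3.06 and 2.17 CPM in BLM+HBO mice, and the groups did not overlap. Cox8b was 0.225 to 1.04 CPM in BLM mice and 3.41, 2.54 and 0.412 CPM in BLM+HBO mice. Elovl3, Zic1, Ebf2, Otop1, Lhx8 and Cpt1b were below the filter. The count was 1, higher, without BLM 1, without BLM 4, without BLM+HBO 1, in limma and with the replicate block. It was 1 higher and 1 lower without BLM+HBO 2, 3 higher without BLM+HBO 3, and 2 higher and 2 lower with no filter on low counts, the lower ones being Dio2 and Lhx8.

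**Figure D2:**
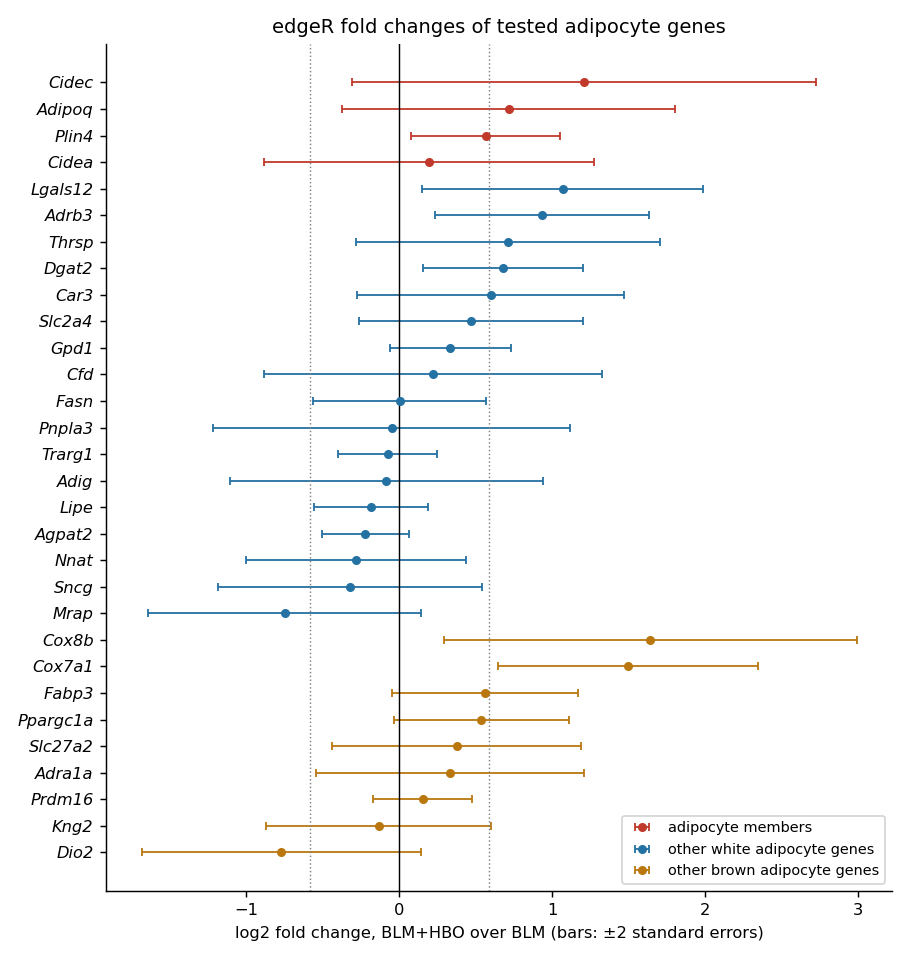
Log2 fold change of BLM+HBO over BLM (horizontal axis, points, with bars of 2 standard errors) for the 4 tested members, 17 other white and 9 other brown adipocyte genes; dotted lines mark a fold of 1.5 either way. Cox8b at 1.64 and Cox7a1 at 1.49 lie farthest right, and Plin4 at 0.57 lies just inside the dotted line.

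Heart muscle genes were read from the same fit. Of 15 heart muscle genes, 13 were called higher, beside 3.40% of all tested genes, and none lower. The median log2 fold change of the 15 was 1.82. Their summed level was 76.9, 157, 122 and 214 CPM in BLM mice and 805, 631 and 181 CPM in BLM+HBO mice. The groups overlapped, since BLM+HBO 3 lay below BLM 4. The largest changes by P were Mb, the oxygen store myoglobin (log2 fold change 3.61, SE 0.55), Actc1, cardiac actin (1.73, SE 0.33), Ttn, the sarcomere spring (2.30, SE 0.44), and Ckmt2, a mitochondrial creatine kinase (3.62, SE 0.72). Each had an adjusted P of 0.423 in edgeR's quasi-likelihood test.

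BLM+HBO 1 and 2 had the highest heart muscle sums and the highest Cox7a1 and Cox8b levels, and the part of heart muscle in those calls was not tested. Ucp1 reads, 3 and 6, were also most numerous in these mice. Plin4 was 5.06, 5.26 and 4.91 CPM in the BLM+HBO mice, whose heart muscle sums were 805, 631 and 181 CPM. In BLM mice 1 to 4 Plin4 was 3.74, 3.21, 4.23 and 2.53 CPM, beside heart muscle sums of 76.9, 157, 122 and 214 CPM. BLM 4 thus had the highest heart muscle sum of its group and the lowest Plin4. The part of heart muscle in the level of Plin4 was not tested. Heart muscle sums were 14.2 to 86.9 times the sum of the 8 adipocyte genes in the same mouse, in CPM not corrected for length.

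Cidec was set beside another list. Within each group, the order of the mice by Cidec was the order by the sum of 12 lung epithelium and endothelium genes, which was 16908, 30512, 29127 and 25150 CPM in BLM mice and 40081, 23736 and 48911 CPM in BLM+HBO mice. This order was noticed after the values were seen, it rests on 7 mice, and its part in the level of Cidec was not tested. In that list 2 genes, Sftpa1 and Scgb1a1, were called higher and none lower, with a median log2 fold change of 0.27. The count called in it was 0 without BLM 1, BLM+HBO 1 or BLM+HBO 3, in limma and with the replicate block, and 1 without BLM 3 or 4.

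**Figure D3:**
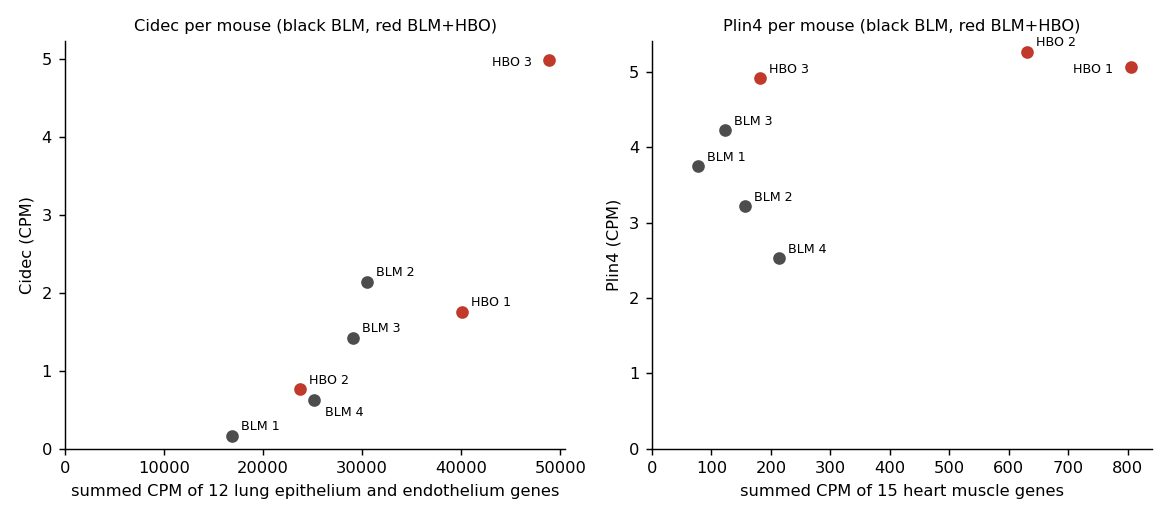
Each point is a mouse; left, Cidec (CPM) against the summed CPM of 12 lung epithelium and endothelium genes, right, Plin4 (CPM) against the summed CPM of 15 heart muscle genes, all axes linear from 0. Cidec and the lung sum are lowest in BLM 1 (0.165 CPM) and highest in BLM+HBO 3 (4.99 CPM), and Plin4 lies between 4.91 and 5.26 CPM in the BLM+HBO mice and between 2.53 and 4.23 CPM in the BLM mice.

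Relatives of the adipocyte genes lay on both sides of the highest member by per-length level (mean RPKM over the 7 mice), which was Cidec at 0.914. Plin2 stood at 50.4 RPKM, Ucp2 at 96.7 and Retnla at 729, while Cideb stood at 0.334, Ucp3 at 0.464, Retnlb at 0.478 and C1qtnf9 at 0.278, and C1qtnf5 had no read. Among perilipin, CIDE and uncoupling protein relatives, 5 of 6 were tested, none was called, and the median log2 fold change was -0.03. Plin2, the droplet coat of most cell types, stood at 191 ± 26.1 CPM in BLM (SD, n = 4) and 158 ± 10.2 in BLM+HBO (SD, n = 3). Ucp2, an uncoupling protein of immune cells, stood at 705 ± 89.4 and 638 ± 44.5 CPM. Plin5, the droplet coat of heart and other oxidative tissue, was 3.86 ± 1.36 and 4.59 ± 0.0924 CPM, with an adjusted P of 0.790.

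Among resistin-like and adiponectin-like relatives, 9 of 11 were tested, 2 were called lower, none higher, and the median log2 fold change was -0.39. The 2 were C1qtnf6 (log2 fold change -0.95, SE 0.30, adjusted P = 0.423) and C1qtnf1 (-0.86, SE 0.31, adjusted P = 0.425), secreted proteins with the globular domain of adiponectin. Retnla, a resistin-like gene of macrophages and airways, was 498 ± 136 CPM in BLM (SD, n = 4) and 355 ± 98.0 in BLM+HBO (SD, n = 3), and it was not called (log2 fold change -0.49, adjusted P = 0.530).

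Receptors for the hormones were read throughout, at 42.7 RPKM for Adipor1, 29.5 for Adipor2 and 8.21 for Lepr. Of 4 receptor genes, Lepr, the leptin receptor, was called higher (log2 fold change 0.61, SE 0.27, adjusted P = 0.467), with 110 CPM in BLM+HBO 1 but 43.0 CPM, within the BLM range, in BLM+HBO 2. The call on Lepr was lost without BLM 2, 3 or 4, without BLM+HBO 1 or 3, in limma, with the robust option of edgeR and with the replicate block. The adiponectin receptors Adipor1 (220 ± 11.5 and 207 ± 12.9 CPM) and Adipor2 (179 ± 19.5 and 173 ± 7.29 CPM) were not called, nor was Cdh13, a surface binder of adiponectin.

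Of 12 lipid genes that lung cells also express, none was called higher and 2 were called lower, with a median log2 fold change of -0.10. Fabp4, a fatty acid binding protein of fat that capillary endothelium and macrophages also make, was 14.2 to 18.1 CPM in BLM mice and 8.47 to 11.9 CPM in BLM+HBO mice (log2 fold change -0.63, SE 0.17, adjusted P = 0.423). Angptl4, a secreted lipase inhibitor, was 63.7 to 98.2 CPM in BLM and 39.4 to 60.1 CPM in BLM+HBO (-0.70, SE 0.19, adjusted P = 0.423). Pparg, the master regulator of fat cells that alveolar macrophages also use, had a log2 fold change of 0.03. The count called was 0 when BLM 4 was left out and 1 when BLM+HBO 1 or BLM+HBO 3 was, with library totals and with the replicate block. Among 9 preadipocyte genes, Dpp4 (0.68, SE 0.23) and Ebf1 (0.62, SE 0.20) were called higher and none lower. Both had an adjusted P of 0.423 in edgeR's quasi-likelihood test. In this list Ly6a averaged 560 CPM in BLM and 502 in BLM+HBO, and Cd34 311 and 282 CPM. Which cells gave these reads was not tested. None was called when BLM+HBO 1 was left out, and 1 was higher and 1 lower when BLM 1 was. It was 2 higher and 2 lower without BLM 3, and 2 higher and 3 lower without BLM+HBO 2. The median of that list was -0.16.

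Markers of other tissues that could come with a lobe were set beside the adipocyte genes. Thymus genes summed to 2.82 to 10.4 CPM per mouse, mostly from Cd8b1, a gene of CD8 T cells in any tissue, at 2.14 to 9.80 CPM. Rag1, Rag2, Ptcra, Psmb11 and Foxn1, the more specific thymus genes, had 0 to 4 reads per mouse each. Cartilage genes summed to 4.10 to 11.5 CPM, mostly from Sox9 and Hapln1, while Col2a1, the main cartilage collagen, averaged 0.311 CPM in BLM and 0.452 CPM in BLM+HBO. Skeletal muscle genes summed to 7.87 to 19.9 CPM over 12 genes. Of 7 tested, 2 were called higher (Ckm and Myl1) and 1 lower (Acta1). Ckm and Myl1 were highest in BLM+HBO 1 and 2, as were the heart muscle sums. The part of heart muscle in these calls was not tested. Mesothelial genes summed to 188 to 843 CPM, with 2 of 8 called lower, and lymph node genes to 27.0 to 52.1 CPM, with 3 of 4 tested called higher and 1 lower. No Schwann cell gene of 5 tested, no erythroid gene of 6 and not the 1 thymus gene tested was called, and 1 of 3 cartilage genes was called lower. With single mice left out, the counts called ran from 0 (without BLM 1, BLM+HBO 1 or BLM+HBO 3) to 5 (without BLM+HBO 2) for mesothelium and from 1 (without BLM+HBO 1) to 4 for lymph node, with 2 without BLM 1, BLM 2 or BLM+HBO 3. They ran from 1 (without BLM+HBO 1) to 3 for skeletal muscle, from 0 (without BLM 1, BLM+HBO 1 or BLM+HBO 3) to 2 (without BLM 3) for cartilage and from 0 to 3 (without BLM 3) for erythroid genes, of which 2 were called without BLM+HBO 3 and 1 without BLM 4. A Schwann cell gene was called when BLM+HBO 2 was left out.

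**Figure D4:**
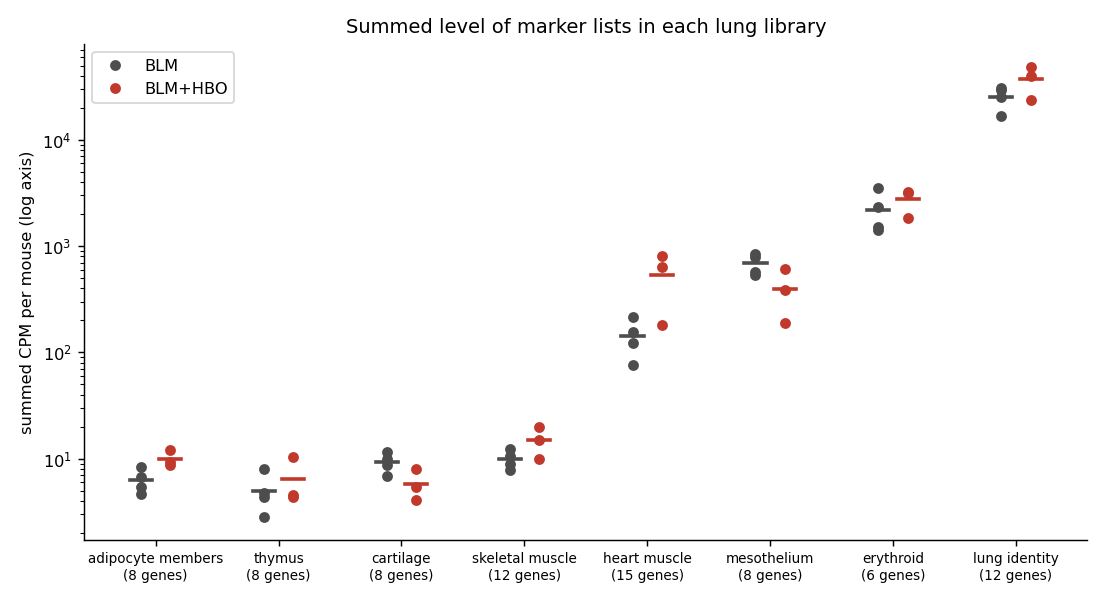
Summed CPM of each marker list (vertical axis, log scale) in each mouse (points; grey BLM, red BLM+HBO), with short lines at the group means. The 8 adipocyte genes lie at 4.69 to 11.96 CPM, and heart muscle genes at 76.9 to 805 CPM.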

How the data were processed

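Right lung lobes of 7 mice were sequenced, 4 BLM and 3 BLM+HBO, with NEBNext Ultra libraries and paired ends on an Illumina NovaSeq. The deposited values are raw counts, which the authors obtained from reads cleaned by Trim Galore and aligned by HISAT2 2.2.0 (version also in the submitters' processing notes) on GRCm38. They counted with featureCounts under its defaults, which ignore strand and leave out reads that map or overlap more than once. The deposited exon length per gene served for RPKM. The annotation release was not given in the sources used here, and symbols from GENCODE vM21 were matched to 55141 of 55401 genes. Each sample was taken as 1 mouse, so P-values measure the spread between these samples, and replicate libraries differed by more than sampling noise.

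The filter on low counts was filterByExpr, with 10 as its smallest count and 15 as its smallest total. It left 17465 genes, which were scaled by TMM. They were tested with edgeR 4.0.16 (glmQLFit, R 4.3.3) and Benjamini-Hochberg adjustment over all tested genes. DESeq2 1.42.0 and limma 3.58.1 were alternatives. Counting intervals are exact at 95%, conditional binomial for ratios and Poisson for levels, and cover counting error only. The 95% intervals of edgeR folds put a normal multiplier on the SE. They are therefore approximate and narrower than the quasi-likelihood test implies. A prior count of 2 was used for log2 CPM. Genes named were the 8 members, genes of listed sets and the 10 nearest to Adipoq. The members and lists were chosen with earlier results of these data known.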

Additional observations from a re-analysis of the deposited data

Results flagged for a closer look

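In groups of 4 mice, a mouse was set apart where its gap to the nearest other mouse exceeded Dixon's 95% critical value as a share of the group's range. Of 26 groups of values examined, 4 exceeded it. For values that vary continuously, chance alone would do so in about 1 group in 20. That rate does not hold for Ucp1 and Lep, where 1 read beside mice with none fixes the share at 1. For Ucp1 the share was 1, since BLM 2 had 1 read and the other BLM mice none. For Lep the share was also 1, from 1 read in BLM 4. The summed Schwann cell genes gave 0.935, with BLM 1 lowest at 444 CPM against 491 to 494 CPM in the other BLM mice. The total count gave 0.971, with 19002242 reads in BLM 4 against 18436336 to 18452895 in the other BLM mice.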

How the results depend on the processing

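The number of called adipocyte genes was 0 in most settings and 1 with upper-quartile factors, with library totals (Plin4 in both), with no filter on low counts (Cidec) and with no fold limit (Plin4). It ranged from 0 to 1 with single mice left out. Over all genes, 1940 were called with no filter, 1861 with no fold limit and 509 at a fold above 2, and 659 to 1914 with single mice left out. At adjusted P below 0.05, DESeq2 gave 123 genes, the fit with no filter 387, and fits with single mice left out 0 to 267, but no adipocyte gene in any of them. Cidea ranged from -0.13 to 0.73 on the log2 scale with single mice left out. Adipoq kept its direction and stayed uncalled in 15 alternatives, at 0.41 to 0.92. Without BLM 3, and with a filter of 1 CPM in 3 mice, Adipoq fell below the filter and was not tested. The causes of these shifts were not tested.

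Replicate numbers were shared between the groups. The mean of each gene's log2 CPM in its group was subtracted, and same-numbered mice were then correlated over the tested genes. These correlations were -0.01, -0.07 and 0.16, so the numbers were not taken as pairs. With the replicate number as a block, 1253 genes were called without BLM 4 and 1258 with BLM 4 as its own block, and no adipocyte gene. The log2 fold change of Cidea was -0.041 in both block fits, and that of Plin4 was 0.45 in both. The depth limits Lep, Ucp1, Retn, Plin1 and Adipoq, none of which passed 21 reads in a mouse.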
